A study of Mus musculus with 9 samples.

Results

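The 10 genes described here encode enzymes and receptors that make and sense prostaglandins and leukotrienes in the heart: Ptgs1, Ptgs2, Ptges, Ptgis, Ptgds, Ptger2, Ptger4, Alox5, Alox5ap and Lta4h. They were taken by symbol from the 54532 gene identifiers of a table of read counts. Each symbol matched 1 identifier, and all 10 genes had counts in all 9 libraries. The libraries came from hearts of male C57BL/6J mice (wild type, 8 to 10 weeks of age), with 3 mice in each of 3 groups. Sham mice had the chest opened and the suture passed without being tied, and received saline. MIRI mice, for myocardial ischemia/reperfusion injury, had the left anterior descending coronary artery ligated for 30 min, followed by 24 hrs of reperfusion, and received saline. GXNI mice had the same ligation and reperfusion and received Guanxinning injection, an extract of Danshen and Chuanxiong, at 9 mL/kg by tail vein. The comparisons ask which of these genes change after ischemia and reperfusion, and which differ with the injection.

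Prostaglandins and leukotrienes are lipid signals made from arachidonic acid, which phospholipase A2 frees from membranes. The cyclooxygenases COX-1 and COX-2, encoded by Ptgs1 and Ptgs2, convert it to prostaglandin H2, and terminal synthases turn that into prostaglandin E2, prostacyclin, prostaglandin D2 or thromboxane. In the other branch, 5-lipoxygenase and its activating protein FLAP make leukotriene A4, which leukotriene A4 hydrolase turns into leukotriene B4, an attractant of neutrophils. COX-2 is widely known as the inducible cyclooxygenase of inflamed tissue, whereas COX-1 is present in many resting cells.

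The promoters of both cyclooxygenase genes and of Ptges are shown because these genes carry the contrast between a steady and a raised level in the data below. Sequences are from RefSeq on GRCm38.p6, which held a promoter for 8 of the 10 genes. Each window has 250 bases, 220 before the annotated start of the transcript and 30 after it, and reads 5′ to 3′ on the strand of the gene. Capitals mark every match, on either strand, to the CRE (TGACGTCA), the CRE core (TGACG), the E-box (CACGTG), the C/EBP pattern TTNNGNAA, the AP-1 pattern TGANTCA, the TATA box (TATAAA) or the NF-kB pattern GGGNNNNNCC. Ptgs1 is read at chr2:36230206-36230455 on the forward strand, Ptgs2 at chr1:150099811-150100060 on the forward strand and Ptges at chr2:30903268-30903517 on the reverse strand.
Ptgs1: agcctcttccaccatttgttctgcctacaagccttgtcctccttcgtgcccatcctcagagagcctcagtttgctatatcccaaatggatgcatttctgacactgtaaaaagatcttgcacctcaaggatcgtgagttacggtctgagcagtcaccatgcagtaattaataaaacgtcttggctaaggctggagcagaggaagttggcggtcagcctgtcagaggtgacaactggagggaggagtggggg
Ptgs2: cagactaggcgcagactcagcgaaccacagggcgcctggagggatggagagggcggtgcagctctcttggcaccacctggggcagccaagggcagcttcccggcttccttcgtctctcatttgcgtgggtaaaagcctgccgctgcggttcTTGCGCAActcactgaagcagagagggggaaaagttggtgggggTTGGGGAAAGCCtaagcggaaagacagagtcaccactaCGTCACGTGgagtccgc
Ptges: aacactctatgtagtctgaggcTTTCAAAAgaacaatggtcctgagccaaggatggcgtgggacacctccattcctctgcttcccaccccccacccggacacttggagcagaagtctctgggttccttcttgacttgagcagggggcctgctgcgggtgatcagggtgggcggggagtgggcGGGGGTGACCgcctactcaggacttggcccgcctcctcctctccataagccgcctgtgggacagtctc
The window of Ptgs1 held none of these letters. The window of Ptgs2 held the CRE core at positions 14 to 18 after the annotated start, overlapping an E-box at 17 to 22. It also held the C/EBP pattern at positions -69 to -62 and -25 to -18, the latter overlapping the NF-kB pattern at -23 to -14. That of Ptges held the C/EBP pattern at -198 to -191 and the NF-kB pattern at -38 to -29. Over 32851 promoters of the same length, 18.8% held the CRE core, 6.37% the E-box, 35.4% the C/EBP pattern, 46.6% the NF-kB pattern, 1.71% the full CRE, 6.68% the AP-1 pattern and 11.7% the TATA box. The start used for Ptges lies 26566 bases inside the gene as annotated by GENCODE, so this is 1 of its possible promoters. No annotated start was checked against measured starts, so a match placed after it may lie before the start in use.

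Total counts ranged from 17119454 to 22811295 per library, and 3 counts corresponded to 0.132 to 0.175 CPM, the counts scaled by library total. Although the labels name cardiomyocytes as the cell type, the RNA was from heart tissue, and all 7 cardiomyocyte markers examined (such as Myh6 and Tnnt2) as well as all 10 macrophage, 6 fibroblast and 6 endothelial markers were detected in every library. In bulk tissue, a change in the number of cells of a type and a change in RNA per cell cannot be told apart. In a principal component analysis of 14699 genes, the leading component (71.6% of the variance) placed the sham libraries at -44.5 to -39.5. The libraries labelled MIRI 1 and MIRI 3 scored 45.7 and 61.6, but MIRI 2 scored -31.9. GXNI 1 scored -30.7 and GXNI 2 12.2, but GXNI 3 scored 69.7, the highest of all. By rank correlation over genes, MIRI 2 was most similar to GXNI 1, and GXNI 3 to MIRI 3. These 2 libraries therefore go against the grouping of the others. There is also reason outside these counts to doubt both labels, and whether they were exchanged was not tested here. If they were, each value given for the MIRI or the GXNI group would mix mice of both groups. Groups follow the deposited labels. Fits of ischemic against sham libraries and of GXNI against MIRI are given with and without both libraries, and fits of 1 group against sham with and without the one of them it holds. The 6 libraries of MIRI and GXNI mice together are called ischemic, which does not depend on which of these 2 labels a library carries. A gene was called, by the limits in the study's methods, when it changed 1.5-fold or more with an unadjusted p no greater than 0.01. Beside it, the p adjusted over all genes tested is given.

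Ptgs2 rose after ischemia and reperfusion and was higher in all 6 ischemic libraries than in any sham library, whereas Ptgs1 was higher than sham in 2 of them and lower in 4. Ptgs2 maps to chromosome 1, 150100031 to 150108227 (forward strand), has 4.58 kb of exons (GRCm38, GENCODE M21) and overlaps no other gene. Its level was 0.859, 0.298 and 0.428 CPM in the sham libraries, from 16, 6 and 8 counts. In MIRI libraries 1 to 3 it was 24.5, 1.998 and 32.8 CPM, and in GXNI libraries 1 to 3 it was 0.894, 4.31 and 50.8 CPM. All 6 ischemic libraries were above all sham libraries, with GXNI 1 only just above sham 1, and the highest ischemic level was 56.8 times the lowest. Of all genes tested in this comparison, 7.96% had all ischemic libraries above sham and 8.89% had all of them below. The group means were 0.528 ± 0.294 CPM (SD, n = 3) in sham, 19.8 ± 15.9 CPM (SD, n = 3) in MIRI and 18.7 ± 27.9 CPM (SD, n = 3) in GXNI mice. In the 6 ischemic against the 3 sham libraries the log2 fold change of Ptgs2 was 5.18 with a standard error of 1.47 (edgeR quasi-likelihood test, Benjamini-Hochberg adjusted p = 0.0896). It was 4.89, and still called, without MIRI 2 and GXNI 3.

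Ptgs1 maps to chromosome 2, 36230426 to 36252272 (forward strand) and shares 148 bp of exon with Gm43621 on the opposite strand. Its level was 8.59, 8.38 and 7.39 CPM in sham, 6.88, 8.99 and 7.23 CPM in MIRI and 14.8, 5.90 and 6.73 CPM in GXNI libraries. The groups overlapped, and GXNI 1 stood well above every other library. For Ptgs1, the log2 fold change between ischemic and sham libraries was 0.06, with a 95% confidence interval of -0.57 to 0.69 (edgeR, adjusted p = 0.903), and it was -0.18 without GXNI 1 and 0.10 without MIRI 2 and GXNI 3. In GXNI 1 the summed level of 8 mesothelial markers was 93.2 CPM, against 9.34 to 29.3 CPM in the other 8 libraries, and its part in the Ptgs1 level was not tested. Per kb of exon, the ratio of Ptgs2 to Ptgs1 was 0.0301 to 0.0848 in sham. It was 3.01 and 3.84 in MIRI 1 and MIRI 3 and 6.40 in GXNI 3, the 3 libraries in which COX-2 transcripts outnumbered those of COX-1. In MIRI 2, GXNI 1 and GXNI 2 it was 0.189, 0.0514 and 0.620, so the value of GXNI 1 lay within the sham range.

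**Figure D1:**
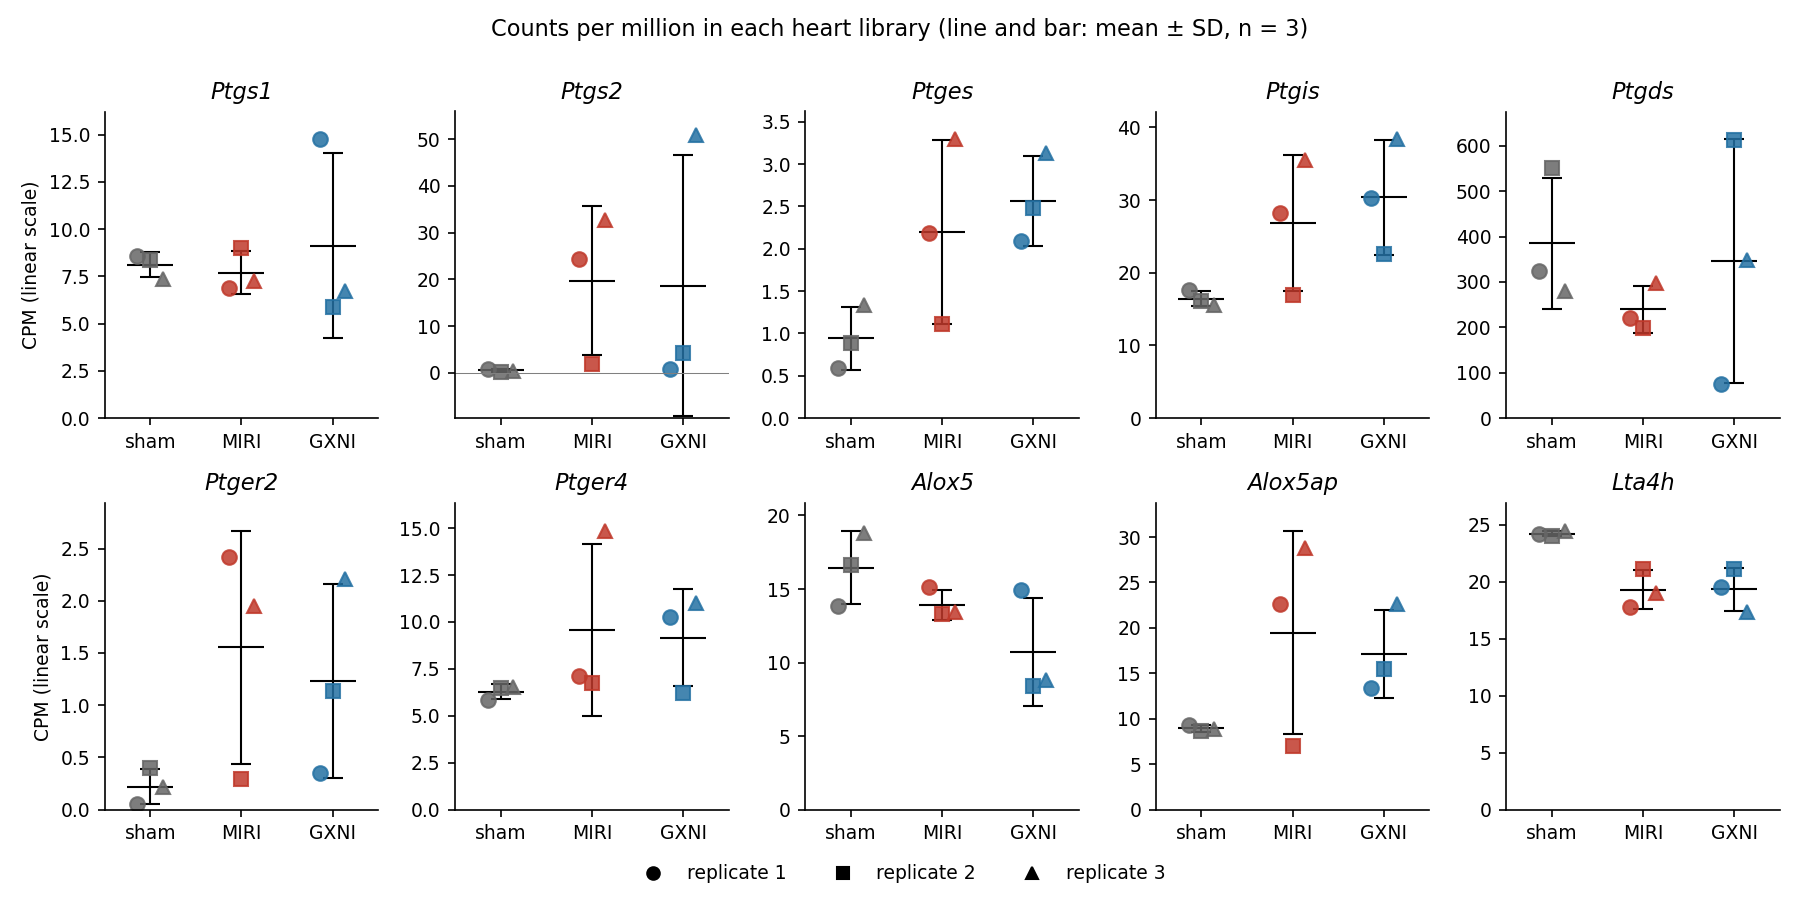
CPM of the 10 genes in each library on linear axes, by group (sham grey, MIRI red, GXNI blue), with symbols for replicates 1 to 3 and a line and bar for mean ± SD (n = 3). Ptgs2 has a mean of 0.528 CPM in sham and reaches 50.8 CPM in GXNI 3, with MIRI 2 at 1.998 CPM, whereas the 3 sham libraries of Lta4h sit above all 6 ischemic ones.

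Of the terminal synthases, Ptges and Ptgis rose after ischemia and Ptgds, the most abundant, had a wide spread between mice and no call. Ptges encodes microsomal prostaglandin E synthase-1, the inducible enzyme that commonly works with COX-2, and maps to chromosome 2, 30889471 to 30929863 (reverse strand). Its level was 0.591, 0.893 and 1.34 CPM in sham, 2.19, 1.12 and 3.29 CPM in MIRI and 2.09, 2.48 and 3.13 CPM in GXNI libraries. MIRI 2 was the only ischemic library within the sham range. Its log2 fold change in ischemic against sham libraries was 1.34 with a standard error of 0.38 (edgeR, adjusted p = 0.0897), and 1.42 without the 2 libraries in doubt.

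Ptgis encodes prostacyclin synthase, whose product widens vessels and restrains platelets. It maps to chromosome 2, 167191805 to 167240604 (reverse strand) and shares 156 bp of exon with 1110018N20Rik on the opposite strand. Its level was 17.7, 16.1 and 15.6 CPM in sham, 28.2, 17.0 and 35.6 CPM in MIRI and 30.3, 22.6 and 38.3 CPM in GXNI libraries. Again only MIRI 2 lay within the sham range. This was a log2 fold change of 0.80 with a standard error of 0.24 (edgeR, adjusted p = 0.0927), and 0.83 without both libraries in doubt. The ratio of Ptgis to Ptges per kb was 17.8 to 45.8 in sham and 13.9 to 23.3 in ischemic libraries, so the prostacyclin synthase transcript outnumbered that of the prostaglandin E synthase in every library.

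Ptgds encodes lipocalin-type prostaglandin D synthase, and maps to chromosome 2, 25466709 to 25470046 (reverse strand). Its level was 325, 550 and 279.3 CPM in sham, 221, 199.6 and 297 CPM in MIRI and 76.0, 612 and 349 CPM in GXNI libraries. GXNI mice spanned both the lowest and the highest value of the series. Between groups, its log2 fold change was -0.39 in ischemic against sham libraries, with an interval of -1.51 to 0.73 (edgeR, adjusted p = 0.602), and -0.35 without the 2 libraries in doubt.

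Both receptors for prostaglandin E2 that signal through cyclic AMP had higher mean levels after ischemia, without a call in either case. Ptger2 encodes EP2 and maps to chromosome 14, 44988195 to 45003820 (forward strand). It was the scarcest of the 10 genes, with 1, 8 and 4 counts in sham, 52, 5 and 45 in MIRI and 7, 23 and 38 in GXNI libraries. These correspond to 0.0537, 0.397 and 0.214 CPM in sham, 2.42, 0.294 and 1.95 CPM in MIRI and 0.348, 1.14 and 2.20 CPM in GXNI. MIRI 2 and GXNI 1 lay within the sham range, and the count in sham 1 was below the floor of 3 counts. Ischemic libraries differed from sham by a log2 fold change of 2.61 with a standard error of 0.85, which was not called (edgeR, adjusted p = 0.103), and 2.69 without the 2 libraries in doubt, where it was called. In the MIRI and the GXNI comparison with sham it fell under the filter on low counts, and a fit without that filter gave log2 fold changes of 2.78 and 2.41. Ptger2 shares 246 bp and 144 bp of exon with Gm17173 and Gm49364, both on the opposite strand.

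Ptger4 encodes EP4 and maps to chromosome 15, 5206661 to 5244187 (reverse strand). It shares 1015 bp of exon with the pseudogene Gm15937 and 82 bp with Ttc33, both on the opposite strand, so part of its counts may belong to these genes. Its level was 5.86, 6.50 and 6.53 CPM in sham, 7.11, 6.76 and 14.9 CPM in MIRI and 10.3, 6.20 and 11.02 CPM in GXNI libraries. Only GXNI 2 lay within the sham range. This gave a log2 fold change of 0.58, with an interval of -0.05 to 1.21 (edgeR, adjusted p = 0.195), and of 0.62 without the 2 libraries in doubt. EP4 transcripts outnumbered those of EP2 per kb in all libraries. The ratio of Ptger2 to Ptger4 was 0.0117 to 0.0782 in sham, 0.0557 in MIRI 2 and 0.0433 in GXNI 1, and 0.168 to 0.435 in the other 4 ischemic libraries.

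In the leukotriene branch, the estimate in ischemic against sham libraries was above 0 for Alox5ap and below 0 for Alox5 and Lta4h, with no call. Alox5ap, which encodes FLAP, the membrane protein that presents arachidonic acid to 5-lipoxygenase, maps to chromosome 5, 149264767 to 149288153 (forward strand). It shares 189 bp of exon with the antisense gene Gm19719. Its level was 9.35, 8.63 and 8.89 CPM in sham, 22.6, 7.05 and 28.8 CPM in MIRI and 13.4, 15.5 and 22.6 CPM in GXNI libraries. All ischemic libraries but MIRI 2, which was below sham, were above the sham range. In the 6 ischemic libraries the log2 fold change was 1.04 with a standard error of 0.37, and it was not called (edgeR, adjusted p = 0.116). Without both libraries in doubt it was 1.17 and was called.

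Alox5 encodes 5-lipoxygenase and maps to chromosome 6, 116410077 to 116461178 (reverse strand). Its level was 13.9, 16.7 and 18.8 CPM in sham, 15.1, 13.3 and 13.4 CPM in MIRI and 14.95, 8.43 and 8.82 CPM in GXNI libraries. Its log2 fold change in ischemic libraries was -0.41, with an interval of -0.89 to 0.08 (edgeR, adjusted p = 0.228), and -0.33 without the 2 libraries in doubt. Sham 1 was below the highest 2 ischemic libraries, so the groups overlapped. Accordingly, the ratio of Alox5ap to Alox5 per kb was 1.36 to 1.95 in sham, 1.54 in MIRI 2, 2.58 in GXNI 1 and 4.33 to 7.42 in the other 4 ischemic libraries.

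Lta4h encodes the hydrolase that forms leukotriene B4, and maps to chromosome 10, 93453411 to 93484875 (forward strand) without overlapping another gene. Its level was 24.2, 24.01 and 24.5 CPM in sham, 17.8, 21.2 and 19.0 CPM in MIRI and 19.5, 21.1 and 17.3 CPM in GXNI libraries. All 6 ischemic libraries, including MIRI 2, were below the 3 sham libraries, as for 8.89% of all genes tested. The difference was small, at a log2 fold change of -0.32 with a standard error of 0.10 (edgeR, unadjusted p = 0.012, adjusted p = 0.103). It met neither limit for a call, and stayed under the 1.5-fold limit at -0.32 without MIRI 2 and GXNI 3.

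**Figure D2:**
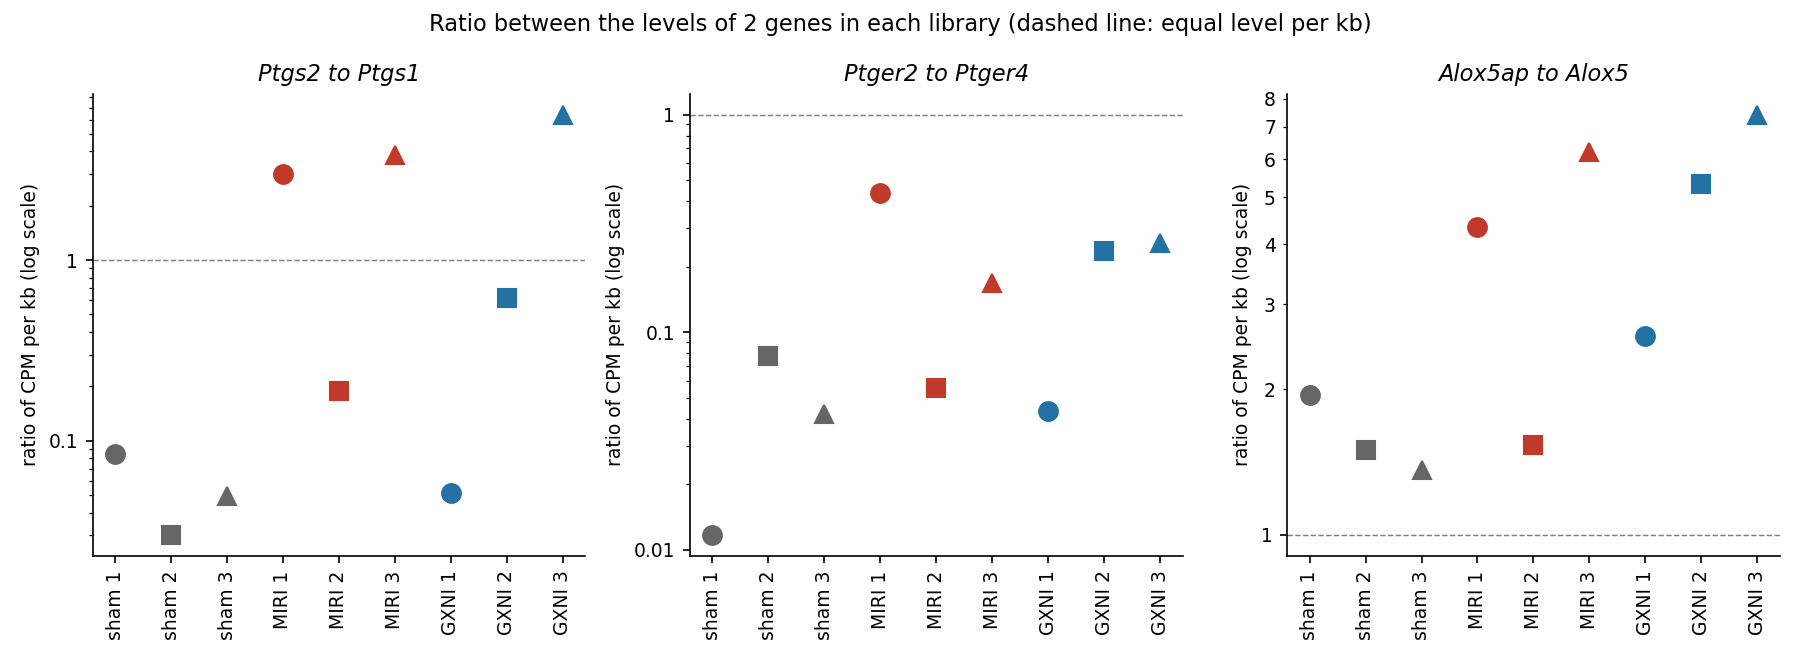
Ratio of CPM per kb between Ptgs2 and Ptgs1, Ptger2 and Ptger4, and Alox5ap and Alox5 in each of the 9 libraries, on log axes, with a dashed line at an equal level. The Ptgs2 to Ptgs1 ratio is over 1 in MIRI 1, MIRI 3 and GXNI 3, and MIRI 2 is within the sham range in the other 2 panels.

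In ischemic against sham libraries, 3 of 10 genes were called higher (Ptgs2, Ptges and Ptgis) and 0 lower, against 5.52% of 15207 genes called higher and 2.85% called lower. The median log2 fold change was 0.69 over the 10 genes and 0.01 over all genes tested. At an adjusted p of at most 0.05, 0 of the 10 genes and 0.0592% of all genes were called. An unadjusted p under 0.05 was reached by 4488 genes. DESeq2 called 5 of the 10 genes higher at the first limits, adding Ptger2 and Alox5ap, beside 5.18% of 29338 genes. The calls depended on single libraries. Without sham 1, sham 2 or MIRI 3 the number of genes called higher was 0, without sham 3 or GXNI 3 it was 1, without MIRI 1 or GXNI 2 it was 2, and without MIRI 2 it was 5. Over all genes, the share called higher was 1.63% to 3.54% in the 3 fits with no call among the 10, 1.99% and 3.77% in the 2 with 1, 3.44% and 4.67% without MIRI 1 and GXNI 2, and 9.67% without MIRI 2. Without GXNI 1 it was 9.57%, with 3 of the 10 called. Without both libraries in doubt 5 of the 10 were called higher, beside 6.60% of 14990 genes. The directions of Ptgs2, Ptges and Ptgis were the same in each of these fits.

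Under the deposited labels, MIRI against sham gave 1 call among the 9 genes that passed the filter, Ptgs2, with a log2 fold change of 5.23 and a standard error of 1.054 (edgeR, adjusted p = 0.0710). Of 14644 genes tested, 6.15% were called higher and 2.82% lower, and at an adjusted p of at most 0.05 0.0137% were called. The log2 fold change was 1.24 for Ptges, 0.72 for Ptgis and 1.13 for Alox5ap, none of them called. Without MIRI 2, where the 2 libraries left stand for the group, these 3 genes and Ptger2 were also called, with log2 fold changes of 1.54, 0.96 and 1.53 for Ptges, Ptgis and Alox5ap, and that of Ptgs2 was 5.76. In that fit 16.9% of all genes were called higher and 13.3% lower. Ptgds had a log2 fold change of -0.67, with an interval of -1.35 to 0.01 (edgeR, adjusted p = 0.178).

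GXNI against sham gave 3 calls among 9 genes that passed the filter, and 2.67% of 14695 genes were called higher and 1.54% lower. The log2 fold change was 1.45 for Ptges (standard error 0.37), 0.90 for Ptgis (standard error 0.21) and 0.95 for Alox5ap (standard error 0.23), each with an adjusted p = 0.219 (edgeR with Benjamini-Hochberg adjustment). At an adjusted p of at most 0.05, 0% of all genes were called, while 2914 genes had an unadjusted p under 0.05. For Ptgs2 the log2 fold change was 5.15 with a standard error of 1.54 (edgeR, adjusted p = 0.221). It fell to 2.30 without GXNI 3 and was 5.72, and called, without GXNI 1. Of the 10 genes, 0 were called higher without sham 1 or sham 2, beside 0.781% and 0.551% of all genes, and 1 without sham 3, beside 0.640%. Without GXNI 3 it was 2 of the 10 (Ptgis and Alox5ap), beside 2.11% of all genes, and without GXNI 2 it was 3, beside 1.58%. Without GXNI 1, 5 were called higher and Alox5 lower, with a log2 fold change of -0.92, beside 10.7% and 7.08% of all genes. These comparisons with sham share their 3 control libraries and are given side by side only.

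**Figure D3:**
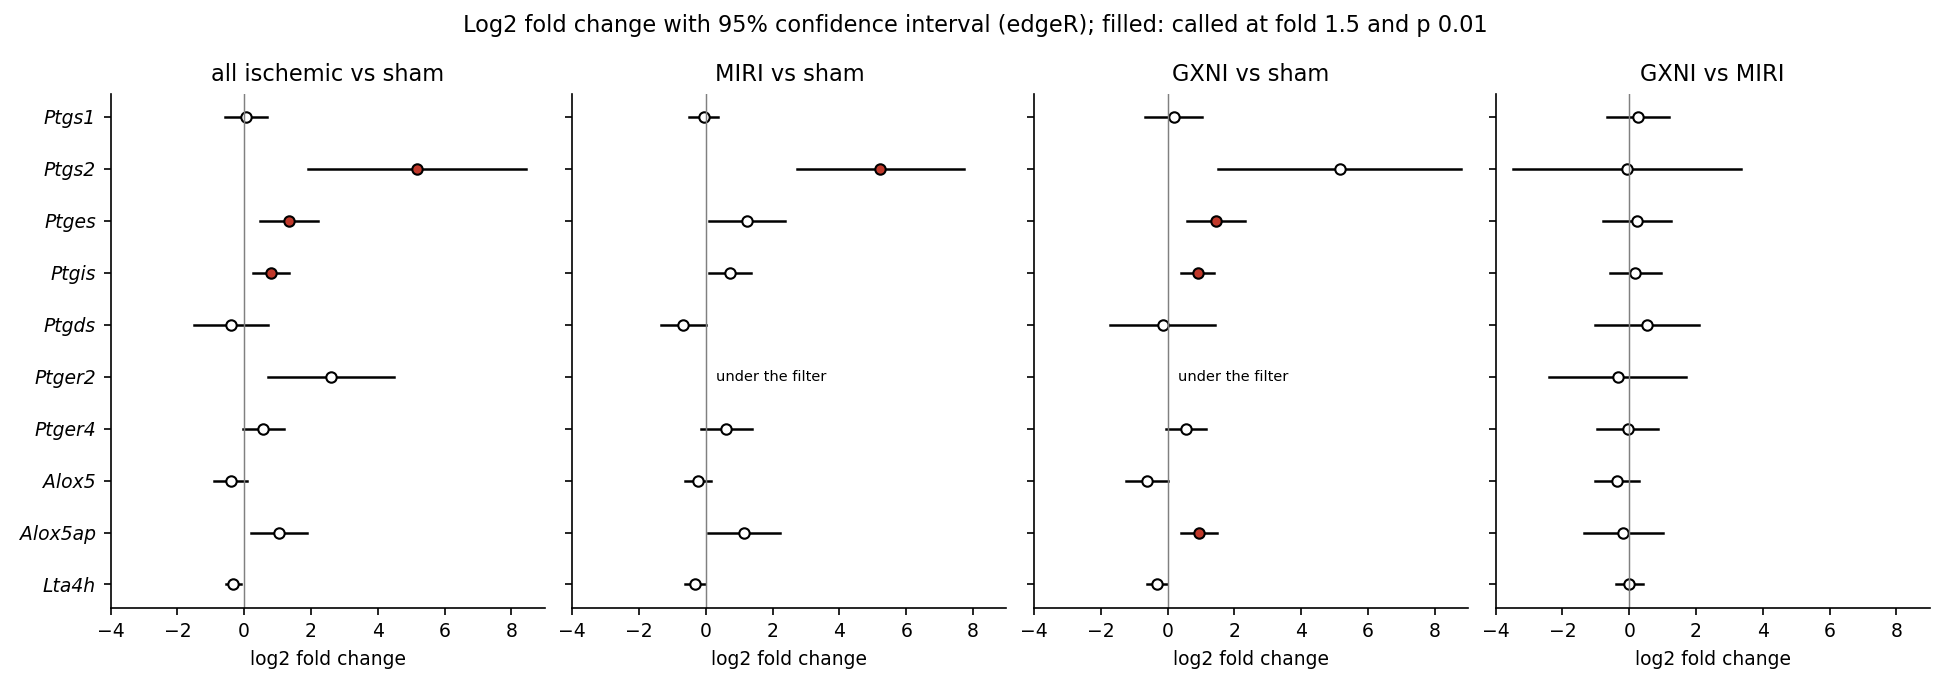
Log2 fold change of each gene in the 4 comparisons, with a point for the edgeR estimate, a line for its 95% confidence interval and a filled point for a call. Ptgs2, Ptges and Ptgis are called in ischemic against sham libraries, and the intervals of all 10 genes include 0 in GXNI against MIRI.

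Both labels in doubt enter the comparison of GXNI with MIRI mice, on opposite sides. As deposited, 0 of the 10 genes were called between GXNI and MIRI, in edgeR as in DESeq2. Of all 14762 genes tested, 0.0203% were called in edgeR in either direction. At an adjusted p of at most 0.05 the share was 0%, and 47 genes had an unadjusted p under 0.05, none of the 10 among them. The log2 fold change of Ptgs2 was -0.07, with an interval of -3.48 to 3.33, so even a change of several fold could not have been detected. Narrower intervals were obtained for Lta4h, at 0.01 (-0.39 to 0.41), Alox5, at -0.37 (-1.02 to 0.28), and Ptgis, at 0.19 (-0.57 to 0.94). For the other genes the values were 0.25 for Ptgs1, 0.23 for Ptges, 0.53 for Ptgds, -0.35 for Ptger2, -0.05 for Ptger4 and -0.17 for Alox5ap. Each of the 10 had an adjusted p = 1 in edgeR.

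Without MIRI 2 and GXNI 3, GXNI 1 and GXNI 2 were compared with MIRI 1 and MIRI 3. The level of Ptgs2 was then 0.894 and 4.31 CPM against 24.5 and 32.8 CPM, a log2 fold change of -3.44 with a standard error of 0.63 (edgeR, adjusted p = 0.188). For Alox5ap it was 13.4 and 15.5 CPM against 22.6 and 28.8 CPM, a log2 fold change of -0.82 with a standard error of 0.20 (edgeR, adjusted p = 0.189). Both were called, as were 3.47% of 14984 genes in the lower direction. Ptger2 had a log2 fold change of -1.54 and was not called, and the intervals of Ptgs1, Ptges, Ptgis, Ptgds, Ptger4, Alox5 and Lta4h included 0. The pair left out held the lowest MIRI and the highest GXNI level of Ptgs2 and Alox5ap. It was doubted in part for a profile in which such genes take part, beside the reason outside these counts. The direction therefore depends on the choice of libraries and is not an independent result on the injection.

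Per kb of exon, Ptgds had the highest mean level in each group, at 233 CPM per kb in sham, 145 in MIRI and 209.7 in GXNI, and Ptger2 the lowest, at 0.0427, 0.299 and 0.237 CPM per kb. Below Ptgds, the order in sham was Ptgis (6.41 CPM per kb), Alox5ap (6.31), Alox5 (4.01), Lta4h (3.97), Ptgs1 (2.09), Ptger4 (0.947), Ptges (0.239) and Ptgs2 (0.115). The differences between Ptgis and Alox5ap and between Alox5 and Lta4h were within their spread over sham mice. In MIRI and in GXNI mice, Alox5ap came next after Ptgds, at 13.7 and 12.1 CPM per kb, ahead of Ptgis, at 10.5 and 11.8 CPM per kb. Ptgs2 moved from rank 9 in sham to rank 4 in MIRI and GXNI, at 4.31 and 4.08 CPM per kb. The differences between Alox5ap and Ptgis and between Ptgs2 and the gene ranked below it were within the spread over mice in both groups. The gene ranked above Ptgs2, Ptgis, had a higher level per kb than Ptgs2 in each ischemic library.

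Other genes of the pathway were examined in 8 lists with 54 genes found, of which 37 passed the filter in ischemic against sham libraries. Of these, 3 were called higher and 5 lower, beside 5.52% and 2.85% of all genes, with a median log2 fold change of -0.22. Upstream of the cyclooxygenases, 1 of 9 phospholipase A2 genes tested was called higher and 1 lower. Pla2g4a, the cytosolic phospholipase A2 that frees arachidonic acid, had 3.17, 2.98 and 3.64 CPM in sham, 9.44, 4.23 and 12.3 CPM in MIRI and 4.07, 7.44 and 13.8 CPM in GXNI libraries. All ischemic libraries were above sham, as for 7.96% of all genes tested, with a log2 fold change of 1.39 (edgeR, adjusted p = 0.0927). Pla2g4b was lower by a log2 fold change of -1.10 (edgeR, adjusted p = 0.0993) at 5 to 22 counts per library, and Pla2g2d had a log2 fold change of -1.85 without a call.

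Among 7 other prostanoid synthases, 2 were called lower and 0 higher. Akr1b3, an aldose reductase that can make prostaglandin F2alpha, fell from 149.8, 186 and 172 CPM in sham to between 100.4 and 122 CPM in the ischemic libraries, a log2 fold change of -0.67 (edgeR, adjusted p = 0.0546). Fam213b, which encodes prostamide/prostaglandin F synthase, had 74.6, 88.0 and 77.9 CPM in sham and 33.5 to 58.4 CPM in ischemic libraries, a log2 fold change of -0.86 (edgeR, adjusted p = 0.0707). For both genes all ischemic libraries were below sham, as for 8.89% of all genes tested. Hpgds, the hematopoietic prostaglandin D synthase, had a log2 fold change of -0.86 and Tbxas1, the thromboxane synthase, one of 0.55, and neither was called.

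Of 5 genes for prostaglandin transport and breakdown, Slco2a1, which encodes the prostaglandin uptake carrier, was called higher. It had 5.53, 3.32 and 4.71 CPM in sham, 14.2, 7.99 and 15.6 CPM in MIRI and 10.4, 8.58 and 19.5 CPM in GXNI libraries. All ischemic libraries were above the sham range, as for 7.96% of all genes tested. The log2 fold change was 1.49 with a standard error of 0.32 (edgeR, adjusted p = 0.0850). Ptgr2, a prostaglandin reductase, was called lower, with a log2 fold change of -0.88 (edgeR, adjusted p = 0.0923). Hpgd, which encodes the dehydrogenase that inactivates prostaglandin E2, had 6.18, 9.13 and 6.26 CPM in sham, 1.16, 3.58 and 1.69 CPM in MIRI and 6.36, 1.59 and 1.91 CPM in GXNI libraries. It was called lower in MIRI against sham, with a log2 fold change of -1.75 (edgeR, adjusted p = 0.0860). In all 6 ischemic libraries it had a log2 fold change of -1.40 and was not called, and GXNI 1 lay within the sham range.

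Of 4 other prostanoid receptors tested, 0 were called, and the largest log2 fold change was -1.12 for Ptgfr, the prostaglandin F receptor. Of 6 genes for cysteinyl leukotrienes and leukotriene B4 breakdown, 0 were called in ischemic against sham libraries. Cyp4f18, which inactivates leukotriene B4, had a log2 fold change of 1.77 there without a call, and Ggt5, which trims leukotriene C4, was called lower in MIRI against sham at -0.94 (edgeR, adjusted p = 0.0835). Ltb4r1, the high-affinity receptor for leukotriene B4, was called higher. It had 0.913, 0.397 and 0.856 CPM in sham, 12.5, 0.529 and 17.4 CPM in MIRI and 1.34, 4.41 and 16.3 CPM in GXNI libraries, with MIRI 2 within the sham range. Its log2 fold change was 3.60 with a standard error of 1.11 (edgeR, adjusted p = 0.0971).

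Alox12, the platelet-type 12-lipoxygenase, was called lower, with 3.38, 6.20 and 7.01 CPM in sham and 1.52 to 3.18 CPM in ischemic libraries. Its log2 fold change was -1.24 (edgeR, adjusted p = 0.0852). Aloxe3 had 0, 1 and 0 counts in sham, 19, 1 and 35 in MIRI and 0, 12 and 45 in GXNI libraries and was not called. Fpr2, a receptor for lipoxin A4 and for bacterial peptides, had a log2 fold change of 2.65 without a call. In MIRI against sham, 3 of 33 of the other pathway genes were called higher and 6 lower, among them Pla2g15 at -0.63 (edgeR, adjusted p = 0.0860). Over all genes, 6.15% were called higher and 2.82% lower there. In GXNI against sham 2 of 34 were called higher, Slco2a1 at 1.52 and Ltb4r1 at 3.35, and 2 lower, Fam213b at -0.79 and Akr1b3 at -0.71 (edgeR, adjusted p = 0.219 each). The shares over all genes were 2.67% higher and 1.54% lower. In GXNI against MIRI 0 of 34 were called, beside 0.0203% of all genes. The largest log2 fold changes there were -0.64 for Cyp4f18, 0.63 for Hpgd and 0.59 for Pla2g4b.

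Without MIRI 2 and GXNI 3, 35 of the other pathway genes were tested in ischemic against sham libraries, and 4 were called higher and 4 lower. Over all genes, 6.60% were called higher and 3.24% lower in that fit. Called higher were Pla2g4a at a log2 fold change of 1.35, Slco2a1 at 1.44, Ltb4r1 at 3.63 and Fpr2 at 2.76. Called lower were Akr1b3 at -0.72, Fam213b at -0.90, Ptgr2 at -0.94 and Alox12 at -1.34. Pla2g4b, at -1.07, was no longer called, and Hpgd, at -1.41, was not called either. In MIRI against sham without MIRI 2, 7 of 37 were called higher and 11 lower, among the latter Hpgd at -2.32 and Ggt5 at -1.15. For this fit the background share was 16.9% upward and 13.3% downward among all 15207 genes tested. In GXNI against sham without GXNI 3, Slco2a1 at 1.08 was called higher, and Akr1b3, Fam213b and Ptgr2 lower, out of 35 tested. All-gene shares in this fit were 2.11% higher and 1.46% lower. Ltb4r1, at 1.996, was not called there. In GXNI against MIRI without both libraries, Ltb4r1 at -2.36, Cyp4f18 at -1.86 and Pla2g7 at -1.09 were called lower and Ptgr2 at 0.74 higher. Of all genes, 3.47% were called lower and 1.52% higher there, and the same limit from the choice of libraries holds as for Ptgs2.

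**Figure D4:**
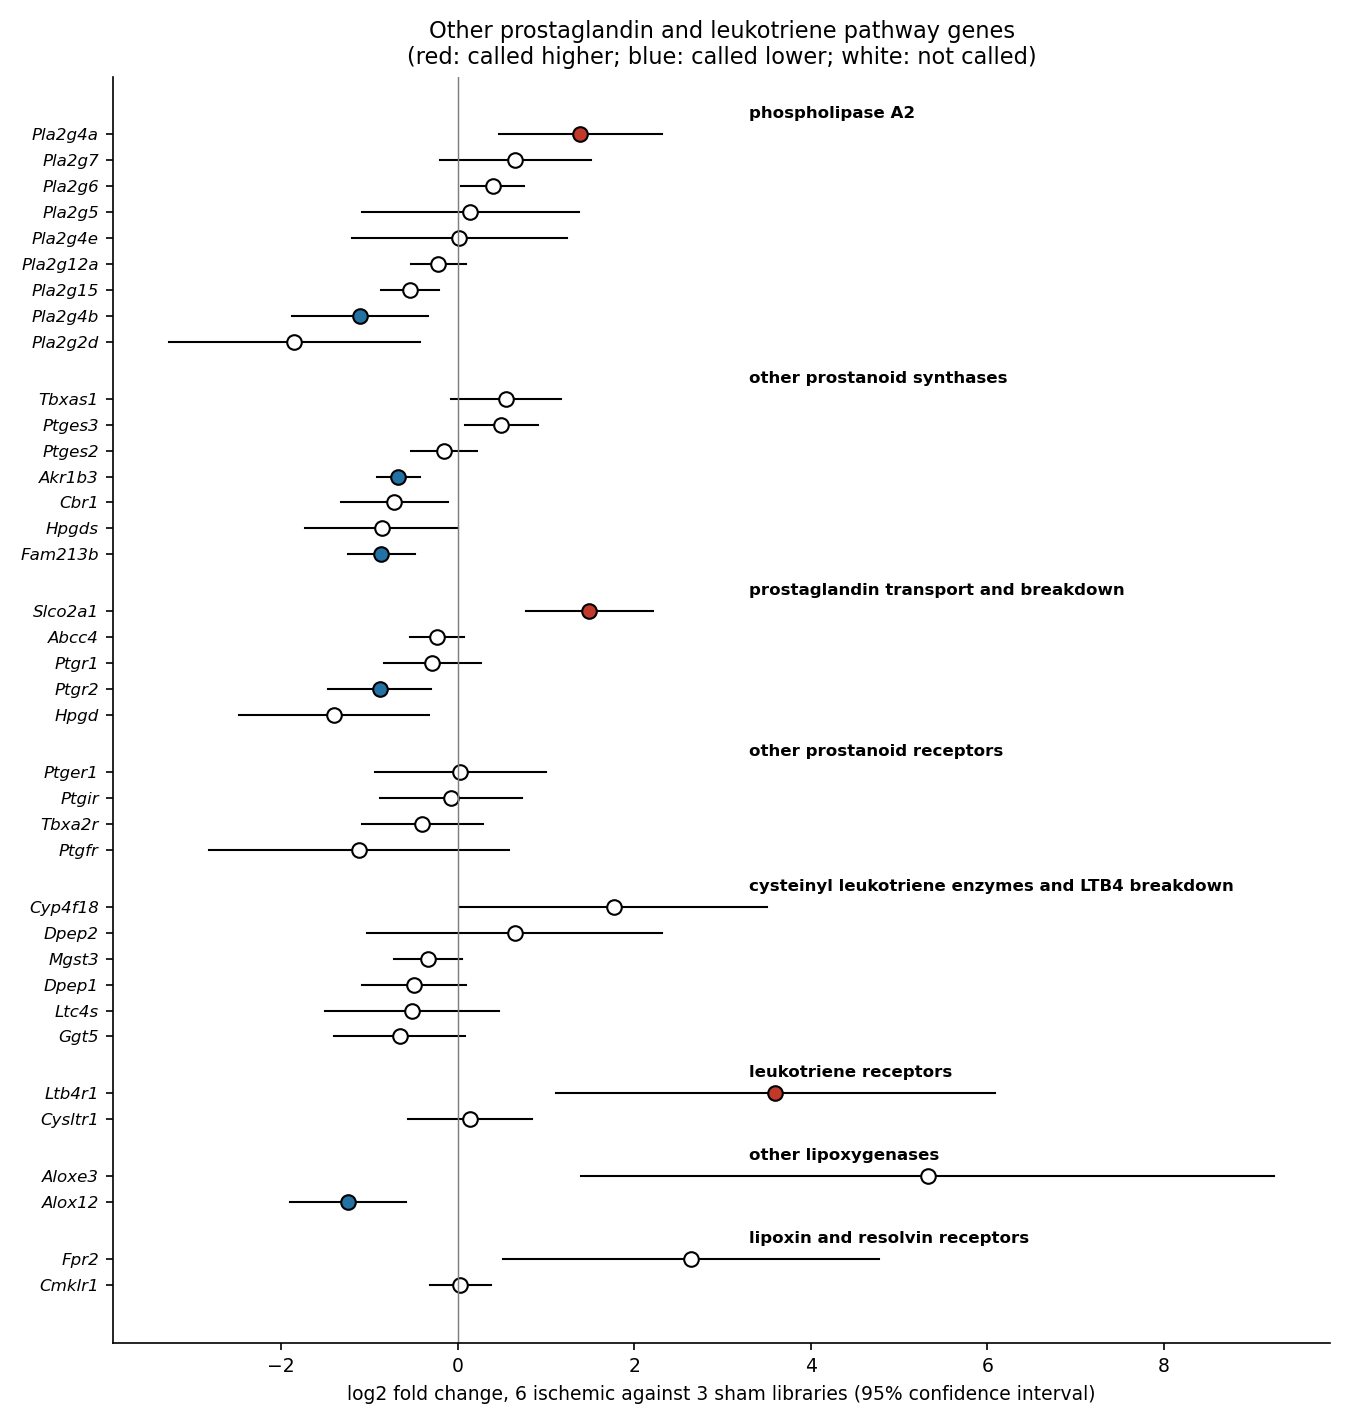
Log2 fold change with 95% confidence interval (edgeR) of the 37 other pathway genes that passed the filter, in 6 ischemic against 3 sham libraries, grouped by list (red called higher, blue called lower, white not called). Pla2g4a, Slco2a1 and Ltb4r1 are called higher, and Akr1b3, Fam213b, Ptgr2, Pla2g4b and Alox12 lower.

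Markers of neutrophils, cells rich in 5-lipoxygenase products and known to express Ptgs2, Alox5ap and Ltb4r1, were examined beside these genes. The summed level of 14 neutrophil markers was 156.5 to 212 CPM in sham, 1179, 233.5 and 924.5 CPM in MIRI and 629, 693.5 and 916 CPM in GXNI libraries, and 12 to 14 of the 14 were detected in each library. Lcn2, which many other cells can also make, supplied most of that sum in all libraries but MIRI 1, MIRI 3 and GXNI 3. Without it, a sum chosen after the values were seen, the level was 31.6 to 64.4 CPM in sham, 791, 29.6 and 751 CPM in MIRI and 53.6, 253 and 784.5 CPM in GXNI libraries. MIRI 2 and GXNI 1, which had the lowest ischemic levels of Ptgs2, Ptger2 and Ltb4r1, were thus within or below the sham range, and Camp and Ngp were at 0 in some libraries. Of 12 neutrophil markers tested in ischemic against sham libraries, all had a positive log2 fold change and 2 were called (Trem1 and Clec4d). Ptgs2 was above all sham libraries in MIRI 2 too, and Alox5ap, Ltb4r1, Ptgis and Slco2a1 were above them in GXNI 1. Alox5 had a log2 fold change of -0.41 in ischemic against sham libraries, with an interval of -0.89 to 0.08, and was not called. The part of neutrophils in these results was not tested. The sum of 10 macrophage markers was 662 to 764 CPM in sham, 480 to 796 CPM in MIRI and 518 to 838 CPM in GXNI libraries, and 0 of the 10 were called. That of 6 platelet markers was 21.4 to 29.9 CPM in sham and 23.6 to 80.9 CPM in ischemic libraries, with Gp6 and Gp9 at 0 in some. The sum of 7 mast cell markers was 7.44 to 8.04 CPM in sham, 15.7, 3.76 and 45.6 CPM in MIRI and 6.21, 9.52 and 46.8 CPM in GXNI libraries. Kit, which other cells also carry, supplied 13.4 CPM of that sum in MIRI 1, 43.1 CPM in MIRI 3 and 45.5 CPM in GXNI 3. In sham it had 1.87 to 2.93 CPM. Of the 5 mast cell markers tested, Cpa3 and Cma1 were called lower, each at a log2 fold change of -1.29, whereas Kit had one of 3.05 without a call.

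**Figure D5:**
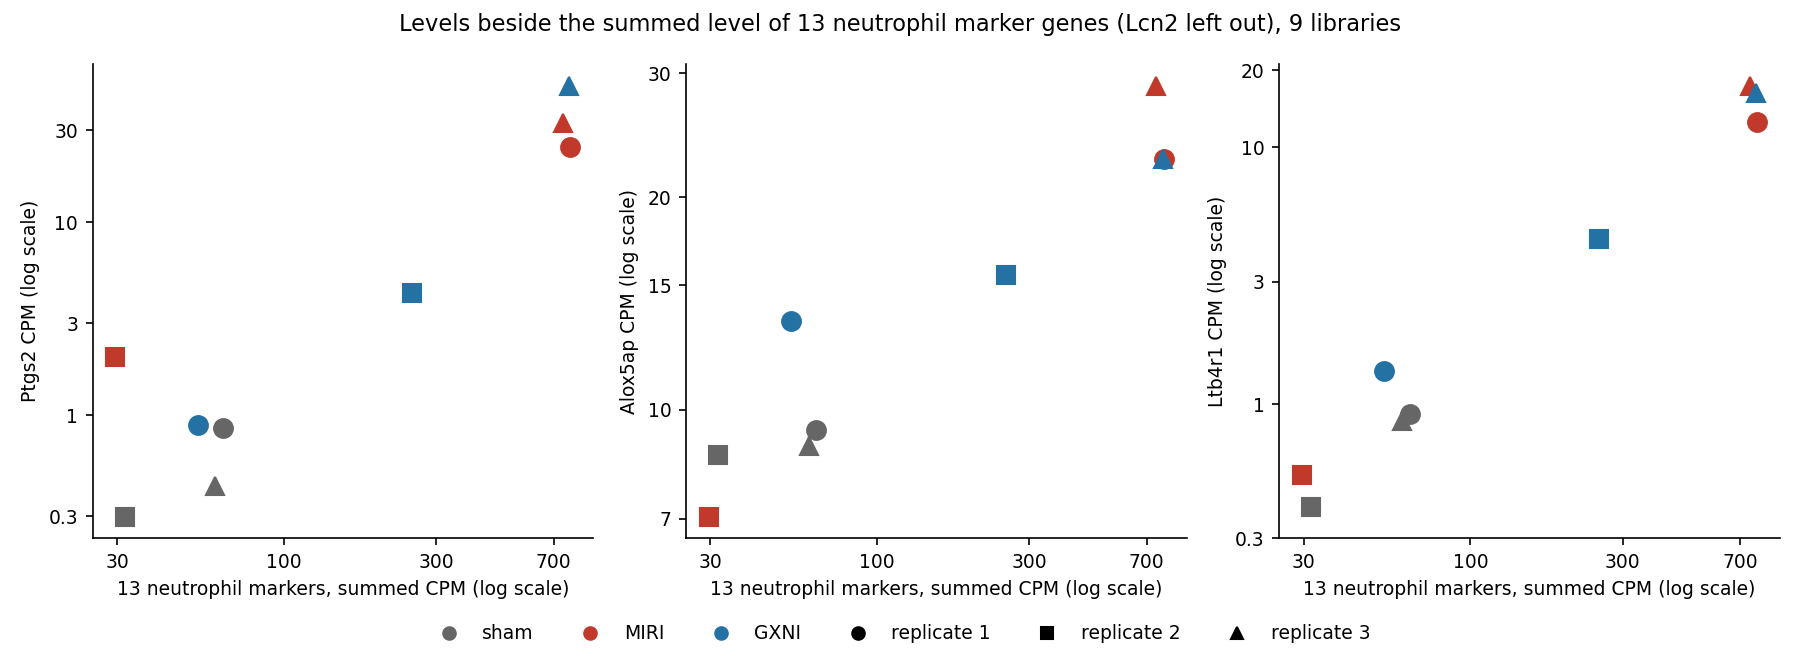
CPM of Ptgs2, Alox5ap and Ltb4r1 against the summed CPM of 13 neutrophil markers (Lcn2 left out) in 9 libraries, on log axes (sham grey, MIRI red, GXNI blue; symbols for replicates). MIRI 1, MIRI 3 and GXNI 3 lie at 751 to 791 CPM of marker sum with the highest level of each gene, and MIRI 2 and GXNI 1 lie among the sham libraries on the horizontal axis.

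Over the 9 libraries, genes with profiles close to that of Ptgs2 were Lif, Plaur, Inhbb and Ereg. Likeness is the root-mean-square difference between log2 CPM profiles, each centred on its mean, over 15206 other genes. It was 0.51 log2 units for Lif and 0.535 for Ereg, where the profile of Ptgs2 itself departed from its mean by 2.62. Lif had 0.21 to 0.30 CPM in sham, 6.93, 0.76 and 12.69 CPM in MIRI and 0.30, 1.44 and 20.13 CPM in GXNI libraries, in the same order as Ptgs2 among the 3 MIRI and the 3 GXNI libraries. For Ptgis, whose profile departed by 0.48, the closest were Nlgn2 (0.13), Ttpal, Zfp9, Itga2b and Fam206a (0.15). For Alox5ap, whose profile departed by 0.69, the closest were C5ar2 (0.10), Stxbp2, Aebp1, Wdfy4 and Gstcd (0.17).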

How the data were processed

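Heart RNA of 3 sham, 3 MIRI and 3 GXNI mice was sequenced. The authors removed low-quality reads, aligned with HISAT2 and assigned reads to genes with featureCounts (Subread), on mm10 per the submitters' processing notes; versions, annotation release and strand setting are not given in the sources used here. The deposited values are whole read counts per gene, without normalization, and 0 further columns of values were present. Of 54532 identifiers, 54409 had a symbol and exon length in GENCODE M21 (GRCm38). Genes overlapping on opposite strands may share reads.

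Each comparison was fitted over all genes with edgeR 4.0.16 (R 4.3.3), using TMM, the default low-count filter and quasi-likelihood F tests with no covariate, on its own libraries only, and p-values were adjusted by Benjamini-Hochberg over all genes tested. CPM uses TMM factors over the 9 libraries, profiles a prior count of 0.5, and values per kb the exon length. Total counts were 17119454 to 22811295, and floors of 3 counts cover counting error only.

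The members, gene lists and the 2 libraries in doubt were chosen with earlier results of these data known. All 10 members are named, and of the other pathway genes those called or among the 3 largest changes of a comparison, together with list members named for their role after the values were seen. Of the 5 genes closest in profile to Ptgs2, Ptgis and Alox5ap each, 1 is not reported here. Alternatives were DESeq2 1.42.0, the replicate block, RLE normalization, all 9 libraries in 1 fit, no filter, an adjusted p limit of 0.05 and libraries left out. On simulated MIRI against sham counts with 200 genes changed by a log2 fold of 2 up or down, edgeR called all 200 among 14587 genes run. It called 0.431% of the unchanged ones. The simulation used 1 low noise level for all genes, changed only genes well above the floor in sham, and held no library like MIRI 2. It was a check of the code and does not measure power in these data. All pairs of libraries differed by more than sampling noise (chi-square over degrees of freedom of 14.4 or more).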

Additional observations from a re-analysis of the deposited data

Results flagged for a closer look

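The level of Ptgs1 in GXNI 1, 14.75 CPM, stood apart from the other 5 ischemic libraries, of which the next was MIRI 2 at 8.99 CPM. The gap was 0.651 of the range of the 6 libraries, above the limit of Dixon's test for 6 values. Chance alone gives such a gap in about 1 of 20 groups, and each of the 10 genes was examined.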

How the results depend on the processing

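Counts of the 10 genes called moved with the method. In ischemic against sham libraries, where the count was 3, DESeq2 gave 5, leaving out both MIRI 2 and GXNI 3 gave 5, and an adjusted p limit of 0.05 gave 0. Beside these, 5.52%, 5.18%, 6.60% and 0.0263% of all genes were called higher. For MIRI against sham, where it was 1, DESeq2 gave 2, no filter 3, all 9 libraries in 1 fit 0 and the adjusted p limit 0. Shares of all genes called higher were 6.15%, 5.34%, 5.75%, 3.52% and 0.0137% in the same order. For GXNI against sham, where it was 3, DESeq2 gave 5, no filter 5, all 9 libraries in 1 fit 0 and the adjusted p limit 0. Here the shares of all genes called higher were 2.67%, 3.56%, 3.57%, 1.97% and 0%. In GXNI against MIRI the count of 0 became 2, beside 3.47% of all genes called lower, without both libraries in doubt. It stayed 0 under each other alternative. The replicate block gave 3, 1, 3 and 0 genes in these 4 comparisons, the counts without it. Deviations of same-numbered libraries correlated between -0.507 and 0.785. These values include both libraries in doubt and cannot tell whether the numbers pair the mice. RLE normalization changed no count.

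With 1 library left out, the count ranged from 0 to 5 in ischemic against sham, from 1 to 5 in MIRI against sham and from 0 to 6 in GXNI against sham. Shares of all genes called higher ranged from 1.63% to 9.67%, from 2.25% to 16.9% and from 0.551% to 10.7%. A group left with 2 libraries is assumed to vary like the others. The log2 fold change of Ptgs1 then ranged from -0.18 to 0.14, from -0.20 to 0.0063 and from -0.35 to 0.42 in these comparisons, and that of Ptgds in GXNI against sham from -0.83 to 0.33. In GXNI against MIRI, where no gene was called, leaving out 1 library changed the direction of 9 genes. Their log2 fold changes ranged from -0.29 to 0.49 for Ptgs1, from -2.92 to 0.49 for Ptgs2, from -0.080 to 0.61 for Ptges, from -0.053 to 0.42 for Ptgis, from -0.17 to 1.004 for Ptgds, from -1.07 to 0.13 for Ptger2, from -0.24 to 0.39 for Ptger4, from -0.57 to 0.19 for Alox5ap and from -0.057 to 0.088 for Lta4h. Without both libraries in doubt, Ptges was at -0.25 and Ptgis at -0.25 in that comparison. Lta4h was at -0.002195 with DESeq2 and at -0.0008991 with all 9 libraries in 1 fit. The cause of these changes was not tested.

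Over all genes, where 1274, 1313, 618 and 3 genes were called in the 4 comparisons, DESeq2 called 2196, 2251, 1401 and 11 and the fits without a filter 1884, 2406, 1425 and 10. The main fits tested 15207, 14644, 14695 and 14762 genes. DESeq2 tested 29338, 27898, 27956 and 28122, and the fits without a filter 29344, 27901, 27966 and 28128. With 3 mice in a group and an adjusted p above 0.05 for each of the 10 genes, the calls are those of an unadjusted limit. Ptger2 was near the count floor in sham, and its fold rests on few reads.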
